A study of Mus musculus with 8 samples.

Results

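The filling of the blastocyst with fluid rests on a sodium pump and on water channels, and 8 genes of this machinery were followed here: Atp1b1, Atp1b3, Aqp1, Aqp3, Aqp5, Aqp8, Aqp9 and Aqp11. They were chosen by name, with earlier results of these data known. Every probe set of the array annotated to one of them alone was read, which gave 18 probe sets of 34945 with a single gene and 8 genes of 18193. Atp1b1 had 5 probe sets, Aqp3 had 4, Aqp11 had 3, Aqp9 had 2, and the other genes had 1 each. Of the 18, 10 probe sets from 6 genes were bright enough to be tested, and 8 were not, including the only probe sets of Aqp1 and Aqp5.

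Each array read polyadenylated RNA of MII oocytes, of blastocysts or of embryos from implantation sites, either wild type (WT) or depleted of connexin 43 (KO), a subunit of gap junctions whose gene is Gja1. The series title says that the depletion was directed to the oocyte. The driver of that depletion, the strain, the ages and the day of pregnancy are not given in the sources used here. Blastocysts had 2 arrays per genotype and the other 2 stages 1 each. The labels do not state separate animals or cultures for the replicates, and the p-values then reflect the spread of arrays, which may be technical.

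The blastocoel is the fluid-filled cavity of the blastocyst. Its outer epithelium, the trophectoderm, pumps sodium out at its inner face with the Na/K-ATPase, whose catalytic alpha subunit needs a beta subunit to reach the membrane, and water follows the salt. Aquaporins are membrane channels that let water through, and the aquaglyceroporins among them, such as Aqp3 and Aqp9, also pass glycerol.

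Signal is the brightness of a probe set on a linear scale in which the trimmed mean of each array was 500. The brightest of 15 probe sets for Bacillus genes, taken as a strict level of background, read 100 to 560 on the 8 arrays. Markers of the labelled material were present: 6 of 6 trophectoderm markers and 4 of 4 inner cell mass markers exceeded that level on all blastocyst arrays, and 7 of 8 oocyte markers on both oocyte arrays, the exception being Zp3. At the implantation site 6 of 7 uterine stroma markers in the KO and 7 of 7 in the WT exceeded it. Of the 6 trophectoderm markers, 3 did in the KO and 4 in the WT. Cdx2 and Gata3 were below it on both arrays, and Elf3 on the KO array. Such counts were not particular to a stage, since 5 of 6 trophectoderm markers exceeded it on both oocyte arrays. Of the uterine stroma markers 5 of 7 did so on the oocyte WT array and on the second WT blastocyst (summed signal 1621 and 3232). The array labelled WT replicate 2 of the blastocysts read 574 for the leading Gja1 probe set, near the KO arrays (375 and 553) and far from the other WT array (9835). On the implantation site arrays this Gja1 probe set read 28105 (KO) and 44493 (WT). On the oocyte arrays it read 150 (KO) and 126 (WT), both below the background level (334 and 132).

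Counted by probe set, 7 of the 10 tested were higher in blastocysts than in oocytes and 0 lower, beside 26% and 17.5% of all 19040 probe sets tested. The median of the 10 was 2.58 on the log2 scale, against 0.42 over all. Without the oocyte WT array only 3 of these passed, all of Atp1b1; Aqp8 was then at 1.44 (adjusted p = 0.112), Aqp3 at 1.18 (adjusted p = 0.262), and the Aqp11 probe sets 1447606_x_at and 1455846_at at 2.68 (adjusted p = 0.0802) and 2.90 (adjusted p = 0.0906). From blastocyst to implantation site 7 fell and 0 rose, beside 18.4% and 13.8% of all, with a median of -2.05 against -0.30. Without the implantation site KO array 4 of the 10 passed, with Aqp3 (-2.50, adjusted p = 0.0691) and the Atp1b1 probe sets 1418453_a_at (-1.23, adjusted p = 0.212) and 1451152_a_at (-1.20, adjusted p = 0.185) among those lost. The scaling moved this comparison: over all probe sets 43.0% of the calls were rises as deposited and 57.6% with a common median, which shifted the median of all by 0.37, and the members then gave 1 rise (Atp1b3) and 6 falls. From oocyte to implantation site 2 rose and 1 fell, beside 19.9% and 15.5% of all, with a median of -0.06 against -0.01. The probe sets share genes, and the tested ones were chosen for brightness, so that these counts are a description.

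Atp1b1 and Atp1b3 encode beta subunits of the sodium pump, which carry the pump to the membrane. Atp1b1 (gene identifier 11931, chromosome 1, 164437099 to 164458355 in GRCm38.p6) was highest in blastocysts. Its probe set 1423890_x_at read 892 on the oocyte KO array and 911 on the WT array, 4577 and 5423 in KO blastocysts, 9330 and 7486 in WT blastocysts, and 4143 and 3934 at the KO and WT implantation sites. All 4 blastocyst arrays were above both oocyte arrays and both implantation site arrays. Another probe set, 1451152_a_at, read 995 and 473 in oocytes (KO and WT), 4233 and 5375 in KO blastocysts, 9566 and 7910 in WT blastocysts, and 2644 and 3030 at the implantation sites. The order of the stages was as for the first. Likewise, 1439036_a_at read 634 and 292 in oocytes, 1954 and 2351 in KO blastocysts, 3913 and 3684 in WT blastocysts, and 881 and 765 at the implantation sites. Its blastocyst arrays again lay above all others.

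**Figure D1:**
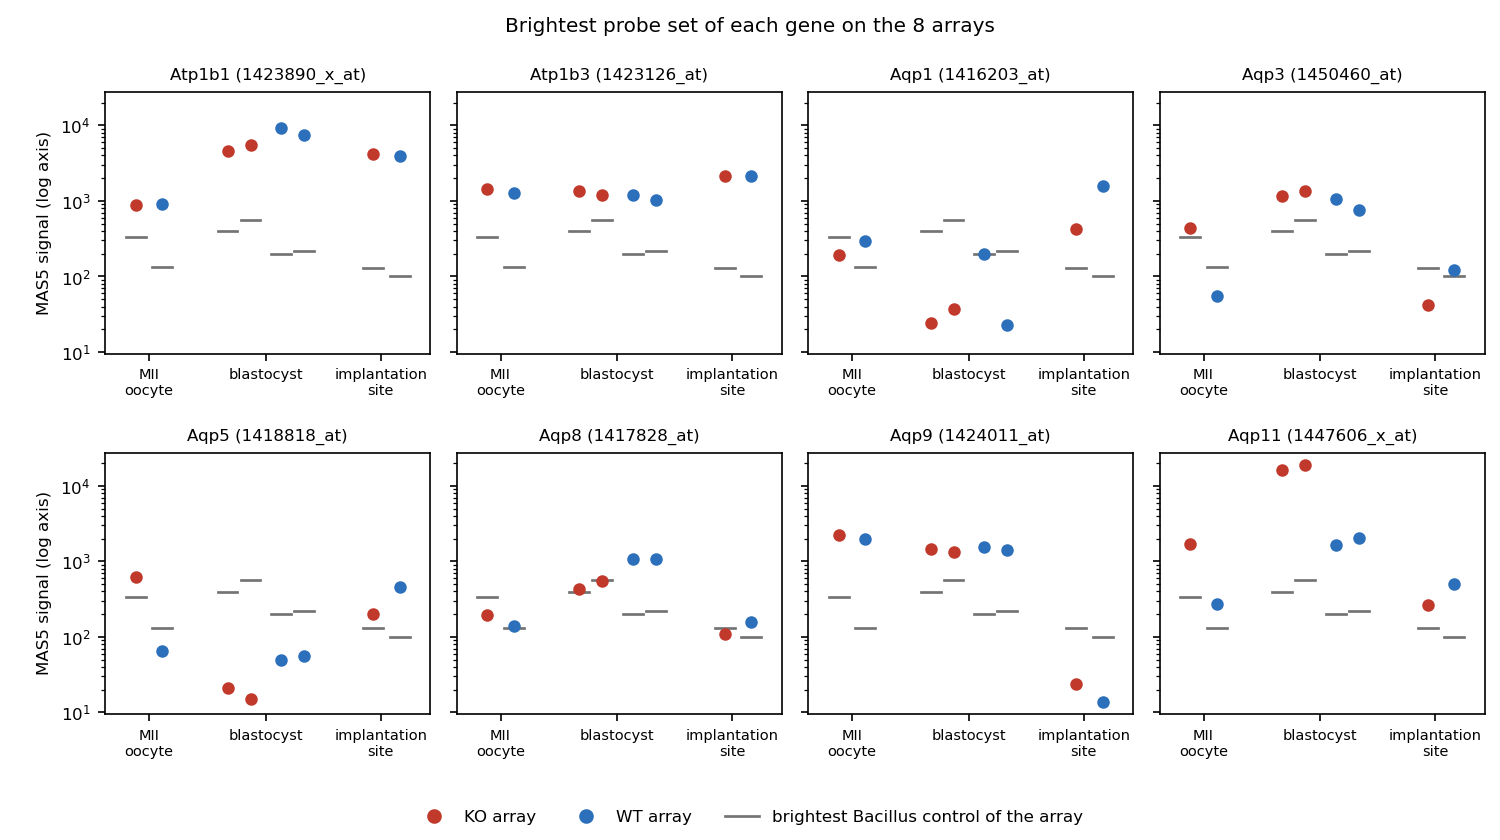
Signal (log axis) of the brightest probe set of each of the 8 genes on the 8 arrays, by stage, with KO arrays in red, WT arrays in blue and a grey line at the brightest Bacillus control of each array. Atp1b1, Aqp3 and Aqp8 are highest in blastocysts, Aqp9 is below its control on both implantation site arrays (23.8 and 13.7), and Aqp11 is far higher in KO than in WT blastocysts.

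These 3 Atp1b1 probe sets rose from oocyte to blastocyst, by 7.16-fold (log2 2.84, SE 0.31, adjusted p = 2.58e-05), 9.39-fold (3.23, SE 0.40, adjusted p = 6.60e-05) and 6.63-fold (2.73, SE 0.43, adjusted p = 0.000328) in the order given. The probe set 1418453_a_at read 883 and 333 in oocytes, 1870 and 1078 in KO blastocysts, 591 and 1178 in WT blastocysts, and 262 and 330 at the implantation sites. Its first KO blastocyst array was the highest, and its blastocyst arrays overlapped with the oocyte KO array. The difference from oocyte to blastocyst was 1.01 (SE 0.49) and did not pass (adjusted p = 0.122). The fifth, 1455949_at, exceeded the background level on 3 arrays only, the oocyte KO array (667) and both implantation sites (224 and 198), and was not tested.

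**Figure D2:**
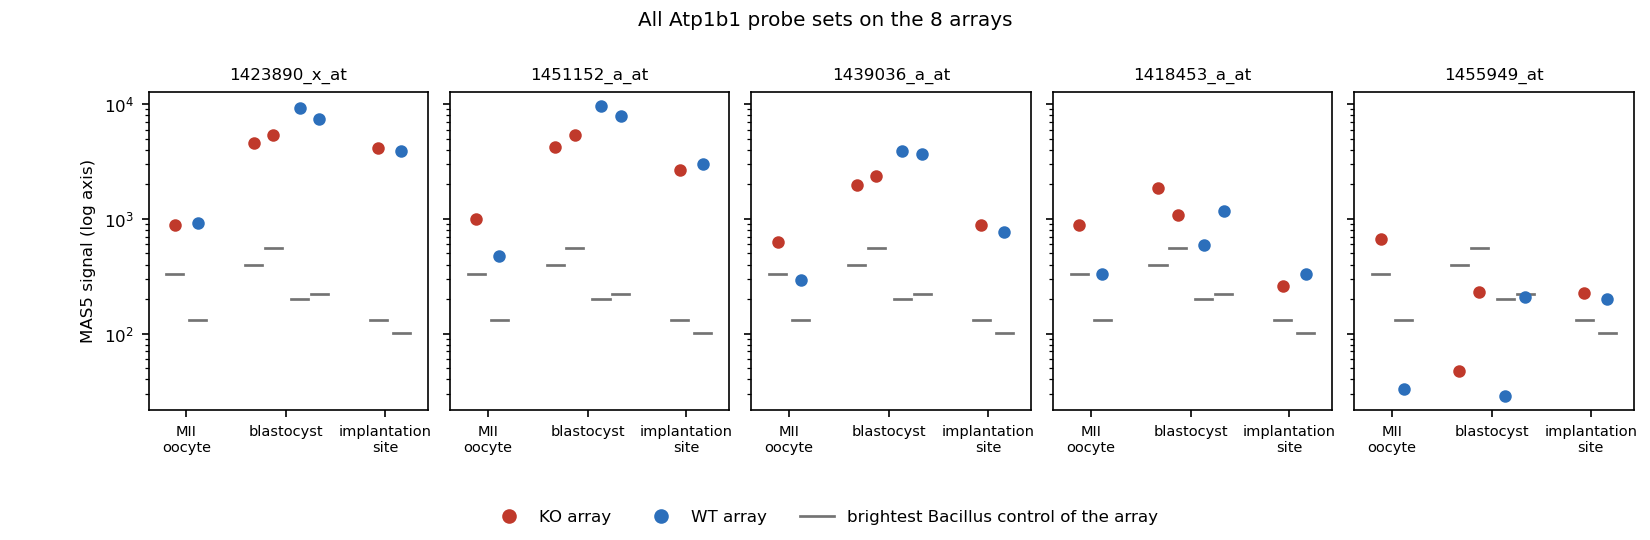
Signal (log axis) of the 5 Atp1b1 probe sets by stage, with KO arrays in red, WT arrays in blue and a grey line at the brightest Bacillus control of each array. The first 3 panels share an order of stages and have both WT blastocysts above both KO blastocysts, 1418453_a_at has its highest value on a KO blastocyst array (1870), and 1455949_at exceeds its control on 3 arrays.

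From blastocyst to implantation site Atp1b1 fell in 3 of its 4 tested probe sets: 3.70-fold for 1418453_a_at (log2 -1.89, SE 0.49, adjusted p = 0.0132), 3.47-fold for 1439036_a_at (-1.80, SE 0.43, adjusted p = 0.00815) and 2.28-fold for 1451152_a_at (-1.19, SE 0.40, adjusted p = 0.0416), the last near the threshold. Without the implantation site WT array 1439036_a_at did not pass (-1.61, adjusted p = 0.0653). The fall of 1451152_a_at did not pass with a common median of the arrays (-0.81, adjusted p = 0.218), without the intensity trend of the test (adjusted p = 0.117), or without the second KO blastocyst, either WT blastocyst or either implantation site array (adjusted p = 0.0649 to 0.185). The brightest, 1423890_x_at, differed by -0.68 (SE 0.31, adjusted p = 0.115). Compared with oocytes, implantation sites were still higher in 1423890_x_at (4.48-fold, log2 2.16, SE 0.36, adjusted p = 0.000737) and in 1451152_a_at (4.13-fold, 2.04, SE 0.46, adjusted p = 0.00513; 1.19 and adjusted p = 0.0729 without the oocyte WT array), whereas 1439036_a_at (0.93, adjusted p = 0.164) and 1418453_a_at (-0.88, adjusted p = 0.254) did not pass. The summed signal of the trophectoderm markers was 8335 and 11810 in oocytes, 39060 to 54130 in blastocysts and 4635 and 2952 at the implantation sites, and that of the uterine stroma markers 70330 and 57830 at the implantation sites. Their part in the stage differences was not tested. In mixed tissue, a smaller share of expressing cells and less RNA per cell cannot be told apart.

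Atp1b3 (identifier 11933, chromosome 9, 96332655 to 96364431) was far flatter than Atp1b1. Its single probe set read 1454 and 1287 in KO and WT oocytes, 1347 and 1213 in KO blastocysts, 1209 and 1022 in WT blastocysts, and 2138 and 2128 at the KO and WT implantation sites. Both implantation site arrays were the highest, and oocytes and blastocysts overlapped. The difference from oocyte to blastocyst was -0.20 (SE 0.30, adjusted p = 0.634), and that from blastocyst to implantation site, 1.79-fold upward, did not pass (0.84, SE 0.30, adjusted p = 0.0536). With a common median of the arrays it was 1.21 and passed (adjusted p = 0.0416), and over all alternatives its adjusted p was 0.0322 to 0.197.

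Among the channels, Aqp3 and Aqp8 were low in oocytes, high in blastocysts and low again at the implantation site. Aqp3 (identifier 11828, chromosome 4, 41092724 to 41098183) read 441 and 55.9 in KO and WT oocytes with its leading probe set 1450460_at, 1163 and 1362 in KO blastocysts, 1075 and 764 in WT blastocysts, and 41.5 and 120 at the implantation sites. The WT oocyte and the KO implantation site were below the background level. The rise to the blastocyst was 6.80-fold (log2 2.77, SE 0.77, adjusted p = 0.0126) and the fall after it 15.1-fold (-3.92, SE 0.77, adjusted p = 0.00296). Without the implantation site KO array the fall was -2.50 and did not pass (adjusted p = 0.0691). The folds became 4.42 and 8.51 when each low value was set to the background level of its array. The other 3 Aqp3 probe sets never exceeded that level.

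Aqp8 (identifier 11833, chromosome 7, 123462294 to 123468003), a channel that also passes ammonia and hydrogen peroxide, read 193 and 138 in oocytes, 429 and 552 in KO blastocysts, 1070 and 1060 in WT blastocysts, and 109 and 156 at the implantation sites, given as KO and WT. The oocyte KO array, the second KO blastocyst and the implantation site KO array were below the background level. Aqp8 rose 4.41-fold from oocyte to blastocyst (log2 2.14, SE 0.56, adjusted p = 0.00923) and fell 5.53-fold to the implantation site (-2.47, SE 0.56, adjusted p = 0.00678), or 3.36-fold and 5.06-fold at the background level.

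The promoters of Atp1b1, Aqp3, Aqp8 and Aqp11 are shown because probe sets of these genes rose together from oocyte to blastocyst. They are the 250 bases before the start of each gene in RefSeq (GRCm38.p6), 5′ to 3′ on the strand of the gene, with matches to the searched motifs in capitals. The windows are chr1:164458356-164458605 (minus strand), chr4:41098184-41098433 (minus strand), chr7:123462044-123462293 (plus strand) and chr7:97738248-97738497 (minus strand).
Atp1b1: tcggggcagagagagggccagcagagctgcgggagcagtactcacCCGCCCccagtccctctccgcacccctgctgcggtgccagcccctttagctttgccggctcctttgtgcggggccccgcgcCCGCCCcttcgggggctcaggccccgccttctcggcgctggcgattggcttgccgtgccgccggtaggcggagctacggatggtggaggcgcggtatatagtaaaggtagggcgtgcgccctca
Aqp3: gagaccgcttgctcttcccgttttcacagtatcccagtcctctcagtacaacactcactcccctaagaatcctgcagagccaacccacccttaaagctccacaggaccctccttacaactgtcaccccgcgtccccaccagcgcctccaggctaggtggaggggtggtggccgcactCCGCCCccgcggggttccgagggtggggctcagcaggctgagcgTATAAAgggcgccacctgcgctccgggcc
Aqp8: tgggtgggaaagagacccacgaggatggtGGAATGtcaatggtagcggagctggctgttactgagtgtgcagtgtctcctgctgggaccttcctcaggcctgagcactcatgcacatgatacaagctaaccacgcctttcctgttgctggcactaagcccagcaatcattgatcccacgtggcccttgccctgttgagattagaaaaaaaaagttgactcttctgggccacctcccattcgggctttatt
Aqp11: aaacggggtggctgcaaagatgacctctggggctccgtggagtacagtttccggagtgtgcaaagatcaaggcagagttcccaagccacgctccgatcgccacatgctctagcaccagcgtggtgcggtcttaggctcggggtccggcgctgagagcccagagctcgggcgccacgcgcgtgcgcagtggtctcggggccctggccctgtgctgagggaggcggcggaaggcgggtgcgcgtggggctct
The motifs were searched on both strands: GGGCGG for the GC box, TATAAA for the TATA box, and, for trophectoderm factor families, GGAATG for TEAD, AGATAA for GATA and GCCNNNGGC for TFAP2. Atp1b1 held the GC box at 2 places, Aqp3 held the GC box and the TATA box, Aqp8 held the TEAD motif, and Aqp11 held none of these letters in this window. Of 32851 promoters of this length, 32.7% held the GC box, 12.4% the TATA box, 12.6% the TEAD motif, 9.99% the GATA motif and 13.7% the TFAP2 motif. A match is a description of letters and not of a bound site.

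Aqp9 (identifier 64008, chromosome 9, 71110659 to 71167849) differed from both, since it was as bright in oocytes as in blastocysts. Its leading probe set 1424011_at read 2251 and 1949 in KO and WT oocytes, 1479 and 1318 in KO blastocysts, 1544 and 1429 in WT blastocysts, and 23.8 and 13.7 at the KO and WT implantation sites. Both oocyte arrays were above all blastocyst arrays, and both implantation site arrays were below background. The difference from oocyte to blastocyst was -0.54 (SE 0.43) and did not pass (adjusted p = 0.337). Aqp9 was at least 12.6-fold lower at the implantation site than in blastocysts (log2 -6.32 as measured, adjusted p = 4.11e-06). It was at least 18.3-fold lower there than in oocytes (-6.86 as measured, adjusted p = 8.54e-06). Here "at least" sets the dim arrays to their background level, and the adjusted p is that of the difference as measured. The other Aqp9 probe set, 1421605_a_at, exceeded background only on the first WT blastocyst array (207).

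Aqp1 and Aqp5 showed the opposite order, brightest at the implantation site or in one oocyte library. Aqp1 (identifier 11826, chromosome 6, 55336299 to 55348555), a water channel of capillary endothelium and red blood cells, read 192 and 294 in KO and WT oocytes, 24.2 and 37.3 in KO blastocysts, 197 and 23.1 in WT blastocysts, and 424 and 1576 at the KO and WT implantation sites. All 4 blastocysts were below background. Its mean lay at the 47.5th percentile of all probe sets, just under the brightness needed for the test, and the nearest member above it was the Aqp11 probe set 1455846_at at the 53.1st. In a fit without that filter Aqp1 was at least 2.61-fold higher at the implantation site than in blastocysts (log2 4.18 as measured, adjusted p = 0.00538). Beside it, 3 of 4 endothelial markers exceeded background at the KO implantation site (summed signal 1471, Pecam1 not above) and 4 of 4 at the WT site (1224). In blastocysts 0 to 1 of 4 did, with summed signals of 778 and 1800 (KO) and 396 and 347 (WT). In oocytes 2 of 4 did on each array, with 968.5 (KO) and 1273 (WT). The background level was lower at the KO and WT implantation sites (131 and 100) than in blastocysts (199 to 560). Of the red blood cell markers, 3 of 4 had a probe set, with 0 above background at the KO site (summed signal 70.3) and 1, Slc4a1, at the WT site (193). The part of these cells in the Aqp1 signal was not tested.

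Aqp5 (identifier 11830, chromosome 15, 99591028 to 99594829), a channel of secretory epithelia, read 626 and 64.4 in KO and WT oocytes, 20.8 and 15.0 in KO blastocysts, 49.5 and 55.6 in WT blastocysts, and 202 and 464 at the KO and WT implantation sites. It exceeded background on the oocyte KO array and on both implantation site arrays. Uterine epithelium markers exceeded background in 5 of 6 cases at the KO site (summed signal 1491) and in 6 of 6 at the WT site (2007). In blastocysts 1 to 2 of 6 did, but the summed signal was higher, at 4578 and 4070 (KO) and 2768 and 3571 (WT). Most of that sum was Msx1, at 2716 and 2096 (KO) and 1933 and 2933 (WT). Foxa2, Ltf, Calb1 and Krt19 were below background on all blastocyst arrays. In oocytes 2 of 6 (KO, 2371) and 3 of 6 (WT, 1860) exceeded background. The background level was 131 and 100 at the KO and WT sites and 132 to 560 on the other arrays. The part of these markers in the Aqp5 signal was not tested.

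Aqp11 (identifier 66333, chromosome 7, 97726379 to 97738247) encodes a channel of intracellular membranes. Its 3 probe sets gave different pictures. The probe set 1447606_x_at read 1692 and 270 in KO and WT oocytes, 16459 and 19061 in KO blastocysts, 1654 and 2016 in WT blastocysts, and 264 and 509 at the KO and WT implantation sites. It exceeded background on all 8 arrays, and the 2 KO blastocysts stood apart from the other 6 arrays. The probe set 1455846_at read 35.5 and 131 in oocytes, 352 and 383 in KO blastocysts, 269 and 516 in WT blastocysts, and 29.5 and 213 at the implantation sites. It exceeded background on both WT blastocysts and the WT implantation site only, and its KO and WT blastocysts overlapped. The dimmest, 1429254_at, read 184 and 17.1 in oocytes, 86.5 and 94.0 in KO blastocysts, 67.8 and 331 in WT blastocysts, and 27.4 and 11.9 at the implantation sites, and exceeded background on the second WT blastocyst alone.

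**Figure D3:**
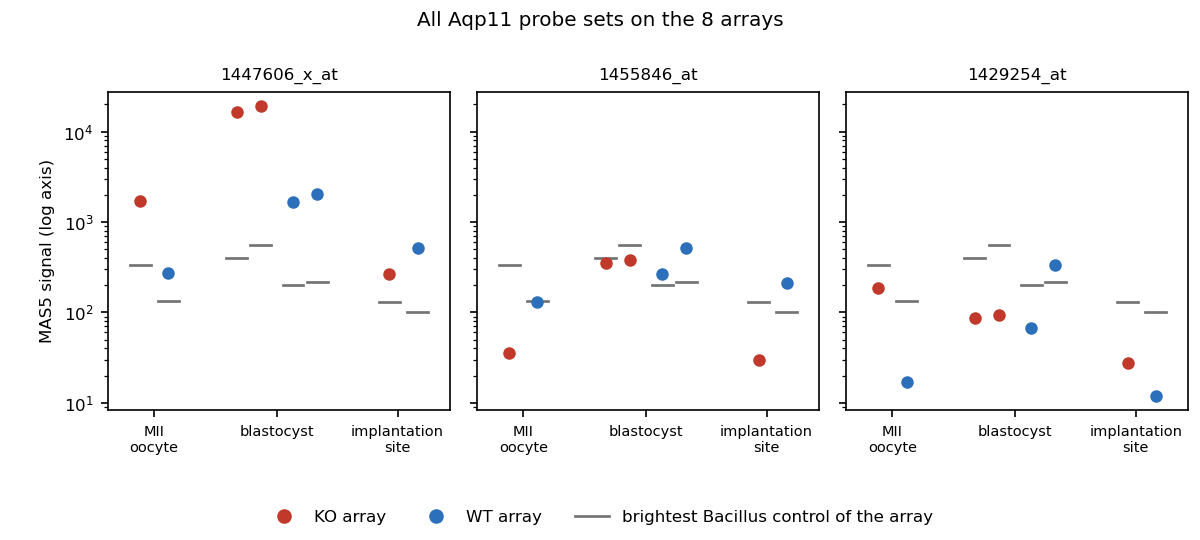
Signal (log axis) of the 3 Aqp11 probe sets by stage, with KO arrays in red, WT arrays in blue and a grey line at the brightest Bacillus control of each array. In 1447606_x_at the KO blastocysts (16459 and 19061) lie far above the WT blastocysts (1654 and 2016), while in 1455846_at the genotypes overlap and 1429254_at exceeds its control once.

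In 1455846_at both oocyte arrays and both KO blastocysts were below background. Averaged over the genotypes, Aqp11 rose from oocyte to blastocyst in 1447606_x_at (8.42-fold, log2 3.07, SE 0.70, adjusted p = 0.00411). Its probe set 1455846_at also rose (log2 2.44 as measured, SE 0.85, adjusted p = 0.0360, or 1.99-fold with all low values set to background). The latter did not pass with low values set to background (adjusted p = 0.0956), or without either oocyte array, either KO blastocyst or the second WT blastocyst (1.98 to 2.90, adjusted p = 0.0755 to 0.177). From blastocyst to implantation site 1447606_x_at fell 15.5-fold (-3.96, SE 0.70, adjusted p = 0.00163), with -1.95 without the implantation site KO array and -5.96 without the WT array, both passing. The probe set 1455846_at differed by -2.22 (SE 0.85) without passing (adjusted p = 0.0650).

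In KO blastocysts the one call among the members was Aqp11 1447606_x_at, 9.70-fold higher than in WT (log2 3.28, SE 0.28, 95% interval 2.64 to 3.92, adjusted p = 0.0196). That is 1 of 10 tested, beside 0.0315% of all 19040 called higher and 0% lower. Aqp11 was known from earlier results of these data when the members were chosen, so that this count is only a description. Without the array labelled WT replicate 2 the difference was 3.42 (adjusted p = 0.00526), and without the first WT array it was 3.13 and did not pass (adjusted p = 0.0600). It did not pass without the intensity trend of the test either (adjusted p = 0.289), or with all 8 arrays in the fit (adjusted p = 0.0724). The other tested probe set of the gene differed by -0.02 (SE 0.55, 95% interval -1.28 to 1.23, adjusted p = 0.992).

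**Figure D4:**
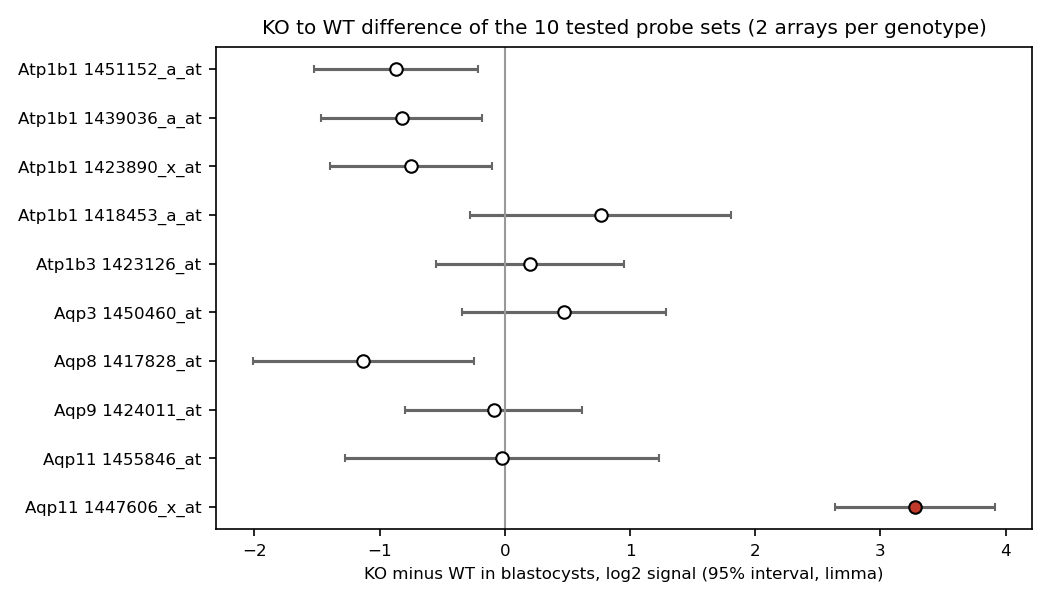
KO minus WT difference in blastocysts on the log2 scale for the 10 tested probe sets, with the 95% interval from limma and the called probe set filled red. Aqp11 1447606_x_at lies at 3.28 and Aqp11 1455846_at at -0.02, while 3 Atp1b1 probe sets and Aqp8 lie below 0 without passing.

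The disagreement between the Aqp11 probe sets was tested as a ratio. The KO to WT difference of 1447606_x_at exceeded that of 1455846_at by 3.30 (SE 0.45, 95% interval 2.23 to 4.37), a 9.84-fold gap that did not pass over all pairs of probe sets of the same gene (adjusted p = 0.111), where 0% of 11546 pairs in 4575 genes did (1433 at an unadjusted p under 0.05). Since 1455846_at was below background on both KO blastocysts, this size is approximate, and it was 2.94 (adjusted p = 0.193) with low values set to background. Without the array labelled WT replicate 2 the pair passed (2.97, adjusted p = 0.0489), in a fit whose spread comes from the 2 KO arrays and assumes that the lone WT array varies alike. The median gap over all pairs was 0.66. The platform's suffix x marks a probe set that may share probes with other transcripts. The genes most like 1447606_x_at over the 8 arrays were Smo (root mean square difference 0.47 on the centred log2 scale), Ttc3 (0.48, in a probe set that also has the suffix x) and Emc6 (0.53). Its own gene's 1455846_at and 1429254_at lay at 1.84 and 1.83, values that rest mostly on signals below background. Smo read 955 and 167 in KO and WT oocytes, 7281 and 11973 in KO blastocysts, 835 and 1027 in WT blastocysts, and 311 and 514 at the implantation sites. The genes closest to 1455846_at were Pcdh1 (0.36), Tubb4b (0.43) and Mfsd4b1 (0.44), and those closest to 1429254_at were Sprr2k (0.39), Inhba (0.45) and Ttll1 (0.48), again mostly from signals below background, which these probe sets exceeded on 3 and 1 of 8 arrays. All 6 probe sets called over the whole table were higher in the KO, and 1 of them carried the suffix x, as did 7.07% of those tested. Of the 6 genes, 3 had another tested probe set, and in 0 of these were 2 probe sets called.

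Of the pump, the 3 bright Atp1b1 probe sets were lower in both KO blastocysts than in both WT blastocysts, without passing over the whole table. The differences were -0.75 for 1423890_x_at (SE 0.28, adjusted p = 0.286), -0.83 for 1439036_a_at (SE 0.28, adjusted p = 0.262) and -0.87 for 1451152_a_at (SE 0.28, adjusted p = 0.250). The dimmer 1418453_a_at was at 0.77 (SE 0.45, 95% interval -0.28 to 1.81, adjusted p = 0.455). Its gap to the others was -1.51 to -1.63 on the log2 scale and did not pass (adjusted p = 0.352 to 0.364), and the 3 bright ones were within 0.12 of each other. Beside this, the brightest 25% of the probe sets tested, which hold 5 of the members, had a median KO to WT difference of -0.31, and the dimmest 25% one of 0.28. The 3′ to 5′ signal ratio of Actb was 25.7 and 39.0 in KO blastocysts against 69.3 and 69.1 in WT. That of Gapdh went the other way, with 11.2 and 11.8 in KO against 7.27 and 7.71 in WT. The summed signal of the 6 trophectoderm markers was 52040 and 54130 in KO blastocysts and 52850 and 39060 in WT. That of the 4 inner cell mass markers was 6388 and 6454 in KO and 12820 and 8180 in WT. Among these 4, Klf4 (2889 and 2552 in KO, 7957 and 4484 in WT) and Sox2 were lower on both KO arrays. Pou5f1 was higher on both (1598 and 1315 against 1215 and 997), and Nanog overlapped. The part of these measures in the Atp1b1 difference was not tested. Without the array labelled WT replicate 2 the 3 differences did not pass either (adjusted p = 0.114 to 0.177). Atp1b3 was at 0.20 (SE 0.33, adjusted p = 0.799).

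Of the other channels in blastocysts, Aqp8 was 2.19-fold lower in the KO (log2 -1.13, SE 0.38, 95% interval -2.01 to -0.25) without passing (adjusted p = 0.262), with both KO arrays below both WT arrays and 1 of the 2 KO arrays above background. Aqp3 was at 0.47 (SE 0.35, adjusted p = 0.551) and Aqp9 at -0.09 (SE 0.31, adjusted p = 0.915). The groups did not overlap for 7 of the 10 probe sets: 3 were higher in the KO, beside 23.1% of all, and 4 lower, beside 25.6%. At an unadjusted p under 0.05, 5 of the 10 differed (1 higher, 4 lower), as did 14.9% of all. The median of the 10 was -0.06, against -0.02 over all. For the KO effect common to the stages, 0 of 10 members passed, as did 0% of all in each direction (1292 of 19040 at an unadjusted p under 0.05), and Aqp11 1447606_x_at was nearest with 2.06 (SE 0.57, adjusted p = 0.714).

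In oocytes, with 1 array per genotype and no replicate check, Aqp11 and Atp1b1 had higher signals in the KO. The KO and WT arrays also differed in the 3′ to 5′ signal ratio of Actb (6.68 and 33.4) and of Gapdh (2.41 and 10.1). Their background levels were 334 and 132. The part of these measures in the oocyte differences was not tested. Aqp11 1447606_x_at was 6.27-fold higher, and the Atp1b1 probe sets 1418453_a_at, 1439036_a_at and 1451152_a_at were 2.65, 2.17 and 2.11-fold higher, whereas the bright 1423890_x_at differed 1.02-fold the other way. Aqp3 was at least 3.33-fold and Aqp5 at least 4.73-fold higher, both with the WT array below background. Atp1b3 (1.13-fold), Aqp9 (1.15-fold) and Aqp8 (1.40-fold) lay closer together. Of the 10 tested probe sets 5 were at least 2-fold higher in the KO, beside 24.4% of all, and 1, Aqp11 1455846_at with both arrays below background, at least 2-fold lower, beside 13.3%. The median of all probe sets was 0.10 as deposited, -0.06 after quantile normalization and -0.41 with a common median, and with the last the 3 Atp1b1 probe sets were at 0.90, 0.62 and 0.57, Aqp11 1447606_x_at at 2.15, and the differences of Atp1b3, Aqp8 and Aqp9 turned to -0.33, -0.02 and -0.30. Aqp8 was at -0.04 after quantile normalization.

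At the implantation site, also without replicates, most of the channels had lower signals on the KO array. Aqp1 was 3.72-fold and Aqp5 2.29-fold lower on the KO array, Aqp11 1447606_x_at 1.93-fold and Aqp8 1.43-fold lower, the last with the KO array below background. Of the tested Atp1b1 probe sets none differed by more than 1.26-fold. Of the 10 tested, 0 were at least 2-fold higher, beside 6.72% of all, and 2 at least 2-fold lower, beside 16.3%, both with the KO array below background (Aqp3 and Aqp11 1455846_at). The median of all probe sets was -0.13 here, or 0.26 with a common median.

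Whether the KO to WT difference of a member changed between stages was tested in a fit over all 8 arrays, added after the data were seen, in which single arrays are assumed to vary like the blastocysts. No member passed in any of the 3 pairs of stages, as did 0% of all probe sets in each (2461, 2268 and 2943 at an unadjusted p under 0.05). For Aqp11 1447606_x_at the difference at the implantation site minus that in blastocysts was -4.23 (SE 0.51, 95% interval -5.41 to -3.04, adjusted p = 0.183), and the difference in oocytes minus that in blastocysts was -0.63 (SE 0.51, adjusted p = 0.642).

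By closeness of pattern over the 8 arrays, Atp1b1 1423890_x_at lay nearest to Atp6v1a, a subunit of the vacuolar proton pump (root mean square difference 0.09 on the centred log2 scale), Chchd4 (0.13) and the chromatin remodeller Smarca4 (0.15). Its own probe set 1451152_a_at was at 0.37. Atp1b3 lay nearest to Septin2 (0.12), Zfp931 (0.13) and Alyref (0.18), and Aqp8 to St6galnac4 (0.25), Mrps15 (0.27) and Trim28 (0.29). Aqp3 lay nearest to Rreb1 (0.34), Mybl2 (0.34) and Ndrg3 (0.41). Aqp9 had Dppa3, a maternal factor of early embryos, as its closest gene (0.56), followed by Trim71 (0.61) and Timm8a2 (0.70). The closest to Aqp1 were Aff3 (0.61), Bgn (0.64) and Cdk6 (0.65), and to Aqp5 Pola2 (0.71), Ehbp1l1 (0.75) and Morrbid (0.75).

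Other genes of the pathway were listed by role: pump subunits, FXYD proteins, which modulate the pump, further aquaporins, and routes of sodium entry. Of the 22 genes analysed, 9 were bright enough to be tested. In both KO comparisons 0 of 9 passed. From oocyte to blastocyst Scnn1a, a subunit of the epithelial sodium channel, rose 6.68-fold (log2 2.74 as measured, adjusted p = 0.0231). With all low values set to background its rise was 2.71-fold, and its second KO blastocyst array was below background. Aqp6 rose at least 2.82-fold (2.30 as measured, adjusted p = 0.0420). Each had both oocyte arrays below background. The sodium-proton exchanger Slc9a3 fell 5.86-fold (-2.55, SE 0.60, adjusted p = 0.00472), from 1405 and 1212 in oocytes to 183 to 299 in blastocysts, where both KO arrays were below background. From blastocyst to implantation site Aqp6 fell at least 5.17-fold (log2 -4.78 as measured, adjusted p = 0.00140). Fxyd4 fell 4.88-fold (-2.29, SE 0.55, adjusted p = 0.00919), with 1 of 2 implantation site arrays above background. From oocyte to implantation site Slc9a3 fell 5.02-fold (-2.33, SE 0.69, adjusted p = 0.0212). That is 2 higher and 1 lower of 9 (beside 26% and 17.5% of all), 0 and 2 (beside 13.8% and 18.4%), and 0 and 1 (beside 19.9% and 15.5%), with medians of 0.57, -1.49 and -1.67 against 0.42, -0.30 and -0.01 over all.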

How the data were processed

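For 8 Affymetrix arrays of polyadenylated mouse RNA the authors deposited linear intensity, computed by MAS5 per the submitters' processing notes (version: not given in the sources used here), with a 2% trimmed mean of 500 on every array, tested on the values, and no detection calls were used. Background was read from 15 Bacillus control probe sets, assuming that no Bacillus RNA was added. For arrays, their number limits the precision.

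Probe sets annotated to a single gene with a mean log2 signal in the upper 50% (a mean of at least 151), 19040 in all, were tested on the log2 scale with limma 3.58.1 in R 4.3.3 (two-sided, eBayes with trend, adjusted over all of them by Benjamini-Hochberg, called under 0.05). Blastocyst KO against WT used 4 arrays, and stages and the common KO effect used 8, with stage and genotype as terms. Same-gene probe sets were compared by their log2 ratio. Folds described as "at least" set the dim group to the brightest Bacillus signal of each array, with the other group as measured. The adjusted p-values printed with them belong to the differences as measured. A fit that leaves 1 array in a group assumes that it varies like the others.

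Named genes were the members, up to 4 called genes per direction from the pathway list, and the 3 genes closest to each leading and each Aqp11 probe set. The members and lists were chosen with earlier results of these data known. The fits were tested on simulated data. Promoters come from RefSeq (GRCm38.p6), which had 10 entries for the 8 genes. Alternatives covered scaling, pseudocount, floor, filter, trend, probe set choice, the replicate block and each array left out. Replicate numbers do not pair the blastocysts in the labels, and KO and WT deviations correlated at 0.00935 across probe sets.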

Additional observations from a re-analysis of the deposited data

How the results depend on the processing

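Counts of stage calls among the tested probe sets stayed within 1.5 times under quantile normalization, a common median, a pseudocount, other filters and no trend, but not always for the same probe sets. From blastocyst to implantation site, Atp1b1 1451152_a_at was lost with a common median or no trend (adjusted p = 0.218 and 0.117), Atp1b3 was gained with a common median or the upper 30% of probe sets (0.0416 and 0.0427), Aqp11 1455846_at with no trend or the pseudocount (0.0456 and 0.0474) and Atp1b1 1423890_x_at with quantile normalization (0.0184). With unsuffixed probe sets only (5 tested), the member calls were 0 for KO in blastocysts, 3 for blastocyst against oocyte, 4 for implantation site against blastocyst and 1 for implantation site against oocyte, with Atp1b3 passing as higher among the 4, and averaging a gene's probe sets gave again 0, 3, 4 and 1. With 1 leading probe set per gene the first 2 stage comparisons gave 4 and 4 of 6. The KO call in blastocysts (1) became 0 without the trend or with all 8 arrays, and 2 with values floored at the control, where Atp1b1 1451152_a_at joined, with 1 for the KO over stages; floored values tie at a level, so the p-values of that setting are approximate.

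Arrays left out in turn gave 0 to 1 calls for KO in blastocysts (0 without the first WT array), 0 to 1 for KO over the stages (1 without either implantation site array), 3 to 7 for blastocyst against oocyte, 4 to 9 for implantation site against blastocyst and 0 to 1 for the same-gene pairs, where Aqp11 passed without WT replicate 2 (adjusted p = 0.0489). The replicate block, whose numbers do not pair the samples, kept 1 call in KO blastocysts (Aqp11, adjusted p = 0.00210), gave 138 higher and 3 lower calls over all probe sets in place of 6 and 0 (12 and 1 with quantile normalization, 45 and 3 with a common median), and 1 pair in place of 0 (Aqp11, adjusted p = 0.0286).

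Differences that turned sign had not passed. For KO in blastocysts these were Atp1b3 (-0.019, common median) and Aqp11 1455846_at (0.34 floored, -0.49 to 0.45 with an array left out). For KO over stages they were Aqp11 1455846_at (0.33 floored), Atp1b1 and Aqp9 (0.27 and -0.23, mean of probe sets), and, with an array left out, Atp1b1 1439036_a_at (-0.48 to 0.12) and Aqp3 (-0.19 to 1.31). From oocyte to implantation site they were Aqp11 1455846_at (-0.33 floored) and, with an array left out, Aqp8 (-1.03 to 0.38), Aqp3 (-2.74 to 0.44) and the Aqp11 probe sets 1447606_x_at (-2.89 to 1.13) and 1455846_at (-0.89 to 1.32). Gaps between bright Atp1b1 probe sets turned as well (0.057 under quantile normalization, -0.14 to 0.052 and -0.037 to 0.19 with an array left out). The causes were not tested. Of the values of single probe sets and same-gene pairs under alternatives, 818 kept their direction and side of the threshold, 25 lost a pass, 22 gained one and 23 turned. Signal near the controls limits Aqp1, Aqp5, Aqp8 and Aqp11 1455846_at.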
